A study of Homo sapiens with 9 samples.

Results

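The 8 protein kinase C genes PRKCA, PRKCB, PRKCD, PRKCE, PRKCH, PRKCQ, PRKCI and PRKCZ were followed through 4 lists of accessible chromatin from Jurkat, an established line of human leukaemic T cells. Peaks that overlapped or touched between the lists were merged, and a merged region was assigned to a gene when it overlapped the gene body or the 50 kb on either side of the gene's 5′ end. By this rule 106 of 40703 merged regions belonged to the 8 genes. Accessibility was measured by FAIRE-seq, in which DNA that is not bound tightly by nucleosomes is recovered from formaldehyde-fixed chromatin and sequenced.

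The series holds 9 samples, 8 FAIRE libraries and 1 library of total input DNA. Cells were pre-treated with DMSO, the vehicle, or with 15 µM rottlerin, sold as a protein kinase C inhibitor, for 1 h. They were then left non-stimulated (NS), stimulated (ST) with 24 ng/mL PMA and 1 µM calcium ionophore for 4 h per the labels, washed and rested for 1 day (SW, stimulus withdrawal) or stimulated again after the rest (RS). The methods give a shorter stimulation than the labels do. Peak lists of 4 samples were analysed, labelled NS DMSO, SW DMSO, NS rottlerin and SW rottlerin, with 1 library each, so that no difference between lists has a replicate check and no p-value is given. The other 5 samples were not analysed here.

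The identity of 3 of the lists is in doubt. The labels assign 2 lists to rottlerin-treated cells. The study's methods describe peak calling on the DMSO samples alone, and the number of regions from merging the 4 lists equals the total described there. The list labelled NS DMSO is named alike by both readings, and each of the others is therefore called by its label throughout. A difference between lists cannot be read as an effect of rottlerin or of rest.

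Protein kinase C enzymes are serine/threonine kinases that carry signals from receptors at the plasma membrane. The conventional enzymes (PRKCA and PRKCB here) need calcium and diacylglycerol, those of PRKCD, PRKCE, PRKCH and PRKCQ, here called calcium-independent, need diacylglycerol alone, and the atypical enzymes (PRKCI and PRKCZ) need neither. PMA takes the place of diacylglycerol and so acts on the conventional and the calcium-independent enzymes but not on the atypical ones, and in T cells the enzyme from PRKCQ, PKC-θ, acts at the contact with the antigen-presenting cell.

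The lists held 18977 peaks (NS DMSO), 20132 (SW DMSO), 23835 (NS rottlerin) and 30409 (SW rottlerin). They covered 6.69, 7.12, 8.51 and 11.5 Mb in the same order. Read depth is unknown from these files. As a check of the cell type, 7 of 8 T-cell genes (CD3D, CD3E, CD3G, CD5, CD28, LCK and CD247, but not CD2) had a merged region within 1 kb of the 5′ end. Of 6 B-cell and myeloid genes, 0 had one.

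Of the 8 genes, 3 had a merged region within 1 kb of the 5′ end (PRKCB, PRKCE and PRKCI), against 44.9% of 20163 protein-coding genes. The sequence across or next to each of these 5′ ends is shown because these are the members' regions closest to the annotated gene start. Of the printed stretches, only that of PRKCB contains the 5′ end. Other regions lay near starts of further transcripts inside the genes. Capitals mark GGGCGG, the consensus of SP and KLF factors, on either strand, and regions wider than 300 bp are printed as their central 300 bp.
PRKCB promoter region, chr16:23847130-23847329, GRCh37, plus strand: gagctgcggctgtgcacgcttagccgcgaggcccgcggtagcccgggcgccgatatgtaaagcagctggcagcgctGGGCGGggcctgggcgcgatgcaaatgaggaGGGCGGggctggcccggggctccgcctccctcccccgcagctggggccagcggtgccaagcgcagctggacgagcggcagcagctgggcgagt
PRKCE promoter region, chr2:45878119-45878403, GRCh37, plus strand: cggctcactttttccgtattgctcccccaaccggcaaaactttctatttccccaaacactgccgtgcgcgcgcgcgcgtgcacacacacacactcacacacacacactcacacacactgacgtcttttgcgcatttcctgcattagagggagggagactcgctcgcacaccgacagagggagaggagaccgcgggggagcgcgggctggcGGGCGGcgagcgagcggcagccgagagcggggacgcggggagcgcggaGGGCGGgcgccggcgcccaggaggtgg
PRKCI promoter region, chr3:169939884-169940183, GRCh37, plus strand: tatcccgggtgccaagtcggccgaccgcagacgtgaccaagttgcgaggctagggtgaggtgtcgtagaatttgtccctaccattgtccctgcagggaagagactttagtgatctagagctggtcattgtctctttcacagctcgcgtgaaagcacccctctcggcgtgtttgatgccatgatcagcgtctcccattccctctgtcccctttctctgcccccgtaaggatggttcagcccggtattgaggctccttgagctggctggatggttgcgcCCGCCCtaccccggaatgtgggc
Each of these sequences held the GGGCGG string, which was present in the central 300 bp of 67.8% of the 3693 merged regions annotated as promoter. The second set is shown because these intronic regions had a peak in every list except NS DMSO and held an AP-1 consensus, TGANTCA, in capitals. For each gene with such regions, the one with the highest enrichment is printed.
PRKCA region 192 kb downstream, chr17:64490081-64490380, GRCh37, plus strand: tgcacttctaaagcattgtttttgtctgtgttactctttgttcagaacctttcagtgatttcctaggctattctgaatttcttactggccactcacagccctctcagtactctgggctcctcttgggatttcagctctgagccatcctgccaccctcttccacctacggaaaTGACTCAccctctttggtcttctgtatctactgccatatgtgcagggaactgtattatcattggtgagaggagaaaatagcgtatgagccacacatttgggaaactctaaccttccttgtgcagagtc
PRKCB region 12.2 kb downstream, chr16:23859379-23859649, GRCh37, plus strand: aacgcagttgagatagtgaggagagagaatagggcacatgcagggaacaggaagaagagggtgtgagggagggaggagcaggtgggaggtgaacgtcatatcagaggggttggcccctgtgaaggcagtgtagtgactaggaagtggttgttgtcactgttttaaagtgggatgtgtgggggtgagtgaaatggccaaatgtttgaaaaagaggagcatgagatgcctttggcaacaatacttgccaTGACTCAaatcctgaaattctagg
PRKCQ region 66.6 kb downstream, chr10:6555472-6555771, GRCh37, plus strand: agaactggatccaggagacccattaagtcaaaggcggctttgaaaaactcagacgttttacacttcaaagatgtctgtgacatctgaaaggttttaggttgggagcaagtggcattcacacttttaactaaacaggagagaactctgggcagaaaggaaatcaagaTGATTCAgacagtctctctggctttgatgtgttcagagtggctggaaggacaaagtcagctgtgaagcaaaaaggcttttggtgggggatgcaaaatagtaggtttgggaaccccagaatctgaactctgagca
The site was written TGACTCA in the PRKCA and PRKCB regions and TGATTCA in the PRKCQ region, read on the plus strand. AP-1 is the dimer of FOS and JUN proteins that PMA is known to induce.

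Accessible regions were spread unevenly over the family. PRKCA and PRKCH had 27 each, PRKCB 19, PRKCQ 15, PRKCE 9, PRKCI 4, PRKCZ 3 and PRKCD 2. The median protein-coding gene had 3 by the same rule. Because the genes differ in length, the number was also set per 100 kb of the span searched, which was 7.38 for PRKCQ, 6.53 for PRKCH, 4.84 for PRKCA, 4.37 for PRKCB, 3 for PRKCI, 2 for PRKCD, 1.62 for PRKCZ and 1.53 for PRKCE. Among the 3666 protein-coding genes of 100 kb or more, where the median was 1.54 per 100 kb, PRKCQ had a higher density than 99% and PRKCH a higher density than 98.4%. PRKCA stood above 94.8% of them and PRKCB above 92.4%, whereas PRKCZ and PRKCE stood above 51.8% and 49.8%. PRKCE, the longest of the 8 genes at 537 kb, thus had the lowest density of the 8, near the median of long genes.

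**Figure D1:**
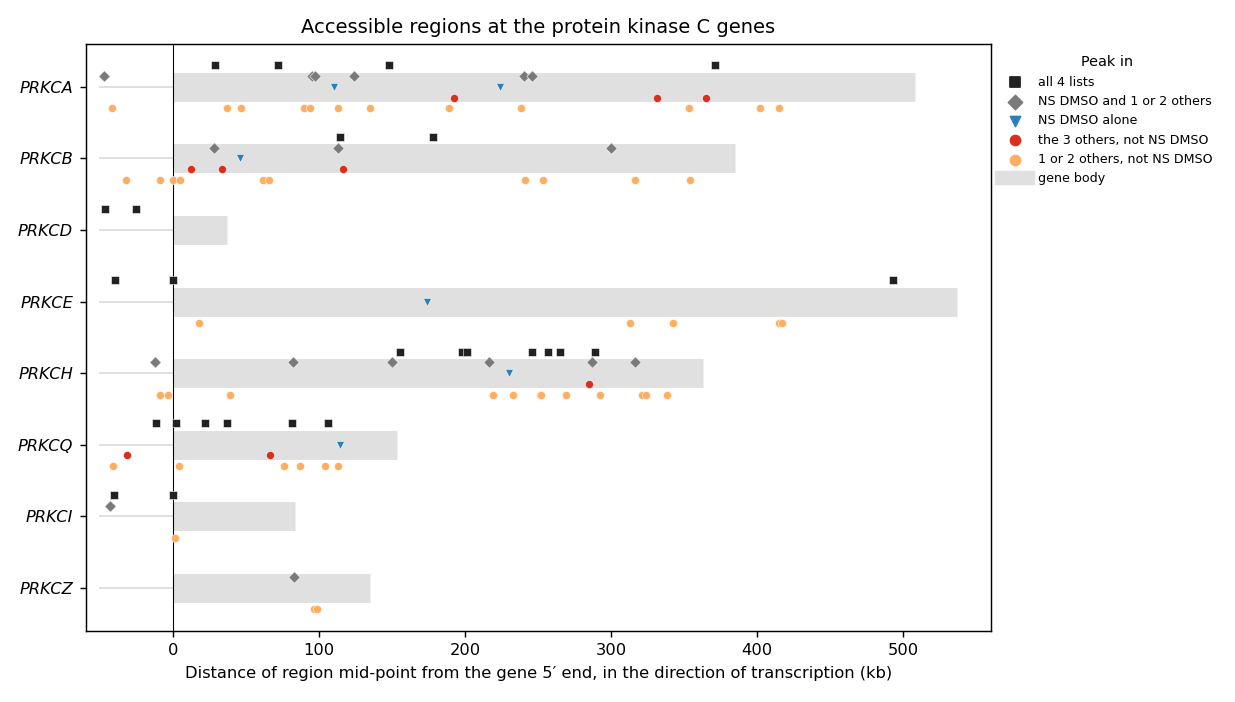
Position of each merged region (marker) as its distance in kb from the gene 5′ end, with the gene body as a grey band and the marker's colour, shape and height in its row giving the lists in which it had a peak. PRKCH regions crowd between 246 and 292 kb, PRKCD has none in its body and PRKCZ has none before 83 kb.

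Most of the 106 regions lay inside introns, 91 (85.8%) against 55.8% of all merged regions, and 90 lay at least in part in the gene body of their gene. Regions were assigned largely by gene body, and most of these genes are long, so the rule itself favours introns. The other annotations were rarer, with 5 regions in promoters (4.72% against 9.07%), 4 upstream (3.77% against 6.12%), 3 in exons, 2 intergenic and 1 in a 3′ untranslated region. The nearest start of a protein-coding transcript belonged to the assigned gene for 93 regions and to another gene for 13. PRKCA, PRKCB, PRKCH and PRKCQ held most of the regions, so that counts over the family are mainly counts over these genes.

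The share of regions with a peak in each list followed the length of the list. Of the 106 regions, 49 (46.2%) had a peak in the list labelled NS DMSO, 53 (50%) in SW DMSO, 59 (55.7%) in NS rottlerin and 87 (82.1%) in SW rottlerin. The same shares over all merged regions were 46.5%, 49.3%, 58.4% and 74.5%. A peak was missing from the list labelled NS DMSO in 57 regions (53.8%, 95% Wilson interval 44.3 to 63), beside 53.5% of all merged regions. A peak was present in all 4 lists in 26 (24.5%, 17.3 to 33.5) beside 26.6%, in the 3 others but not NS DMSO in 9 (8.49%, 4.53 to 15.4) beside 7.08%, and in NS DMSO alone in 6 (5.66%, 2.62 to 11.8) beside 7.83%. These intervals cover counting error only, and each contained the share of all merged regions.

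List by list, 21 regions (19.8%) had a peak in SW DMSO and none in NS DMSO, beside 18.4% of all merged regions, and 17 (16%) the opposite, beside 15.6%. For the list labelled NS rottlerin, 23 regions (21.7%) had a peak there and none in NS DMSO, beside 24.7%, and 13 (12.3%) the opposite, beside 12.8%. For SW rottlerin the numbers were 47 (44.3%) beside 40% and 9 (8.49%) beside 12%. The SW rottlerin list, the longest, was the sole source of 22 regions (20.8%, 14.1 to 29.4), beside 18.2% of all. The median of the highest score (10 times −log10 of the q-value) was 36 in those 22 regions and 94.5 in the 26 regions that every list held. Without the SW rottlerin list, 41.7% of the 84 regions left at the 8 genes had no peak in NS DMSO, beside 43.3% of the 33375 merged regions left. With the higher-scoring 50% of each list, 12.2% of 49 regions were in all 4 lists, beside 29.1% of all. The share in NS DMSO alone was 14.1% of 85 regions with 18977 peaks taken from every list, beside 13.3%, and 9.52% of 84 without the SW rottlerin list, beside 11.6%.

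**Figure D2:**
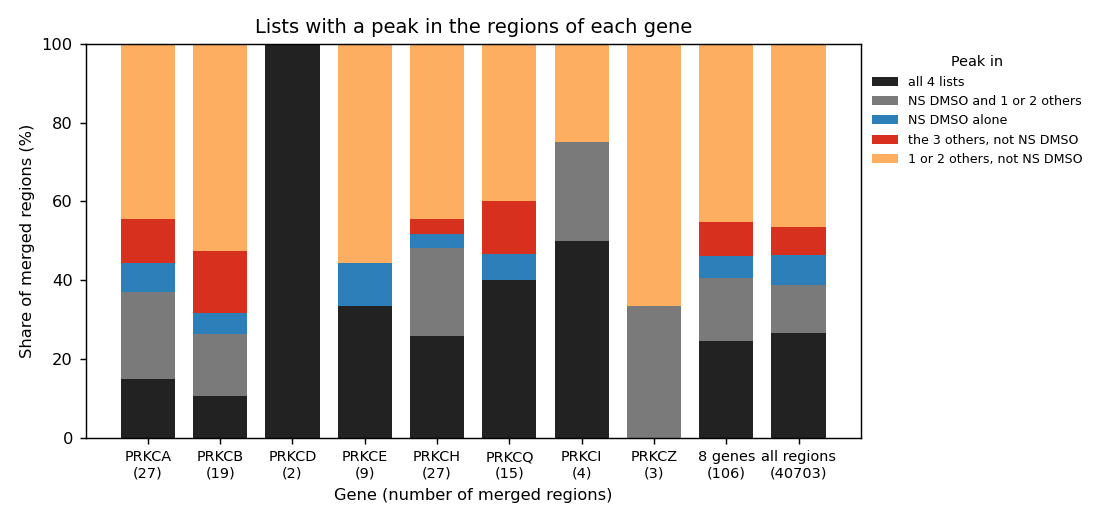
Share of each gene's merged regions (%, stacked bars) by the lists with a peak, with the number of regions under each bar, for the 8 genes, their sum and all merged regions. The bar of the 8 genes together lies near that of all regions, with 24.5% against 26.6% in all 4 lists, while single genes with 2 to 4 regions differ widely.

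PRKCA encodes PKC-α, a conventional enzyme. Of its 27 regions, 12 had a peak in the list labelled NS DMSO, 13 in SW DMSO, 11 in NS rottlerin and 23 in SW rottlerin, and 4 were in all 4 lists. The highest enrichment was at chr17:64370439-64370842, 71.9 kb into the gene, with column 7 (fold enrichment over total input) at 5.08 in NS DMSO, 3.28 in SW DMSO, 5.41 in NS rottlerin and 6.63 in SW rottlerin. The list labelled SW DMSO was the low one there, at 0.646 of the NS DMSO value. No PRKCA region lay within 1 kb of the 5′ end, and the nearest was 28.8 kb inside the gene, with 3.77, 3.41, 4.25 and 4.1 in the same order.

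In PRKCA introns, 3 regions had peaks in every list other than NS DMSO. At 192 kb (chr17:64490033-64490429) column 7 was 3.5 in SW DMSO, 4.22 in NS rottlerin and 4.86 in SW rottlerin. At 331 kb (chr17:64629484-64629721) it was 4.39, 3.18 and 4.18 in the same order. At 365 kb (chr17:64663667-64663961) it was 3.99, 3.74 and 4.7. All 3 held an AP-1 match. Of the 2 PRKCA regions found in NS DMSO alone, the higher was at 224 kb with 3.75. PRKCA regions from 89.8 to 135 kb formed its densest stretch, 8 regions in 45.3 kb. Of these 8, 0 were in all 4 lists, beside 26.6% of all merged regions. The stretch was chosen as the gene's densest and is too small to set against that share.

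PRKCB encodes PKC-β, a conventional enzyme of B and T lymphocytes. Its promoter region, chr16:23847130-23847329, covered the 5′ end and had a peak in SW DMSO (3.72) and in SW rottlerin (4.14), and none in the NS DMSO or NS rottlerin lists. Both lists labelled SW thus held the PRKCB promoter and both lists labelled NS did not, and with the doubt over the labels this is a statement about 4 lists. The same pattern occurred in 7 of the 106 regions (6.6%) and in 6.26% of all merged regions. One of the 7 lay 316 kb into PRKCB (chr16:24162703-24163230), with its mid-point 39 bp from the start of another PRKCB transcript, and had 4.06 in SW DMSO and 5.2 in SW rottlerin, the highest value of the gene.

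Of the 19 PRKCB regions, 6 had a peak in NS DMSO, 9 in SW DMSO, 11 in NS rottlerin and 16 in SW rottlerin. A peak was absent from NS DMSO in 13 (68.4%, 46 to 84.6), and the 53.5% of all merged regions lies inside this interval. The 3 regions with peaks in every other list were at 12.2 kb (chr16:23859379-23859649), with 4.17 in SW DMSO, 3.51 in NS rottlerin and 4.6 in SW rottlerin, at 33.3 kb, with 3.43, 3.48 and 3.9, and at 116 kb, with 3.97, 3.1 and 3.45. The first and the last of them held an AP-1 match. The single PRKCB region of NS DMSO alone, at 45.8 kb, had 3.81. From 9.22 kb upstream to 33.3 kb downstream of the 5′ end, 5 of 6 PRKCB regions had no peak in NS DMSO, a stretch chosen as the gene's densest and too small to set against that share.

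PRKCD encodes PKC-δ, a calcium-independent enzyme for which rottlerin was described as a selective inhibitor, a selectivity that has since been disputed. The PRKCD gene body held no merged region. Both assigned regions lay upstream and were in all 4 lists. The farther, 46.6 kb upstream (chr3:53143227-53143588), had 5.99 in NS DMSO, 6.79 in SW DMSO, 4.63 in NS rottlerin and 5.77 in SW rottlerin. No accessible region was detected in these lists at the start of PRKCD itself, and peak calling with unknown depth sets no upper limit on its accessibility.

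PRKCE encodes PKC-ε, a calcium-independent enzyme. Its promoter region, chr2:45878119-45878403, ended just before the 5′ end and was in all 4 lists, with 4.03 in NS DMSO, 5.08 in SW DMSO, 5.02 in NS rottlerin and 5.59 in SW rottlerin. NS DMSO was the lowest of the 4, and the others were 1.26, 1.25 and 1.39 times its value. The 5.59 was also the highest value of the gene. Of the 6 regions of NS DMSO alone in the family, the one with the highest column 7 was in PRKCE, at 174 kb (chr2:46052447-46052759), with 4.87. Of the 9 PRKCE regions, 5 had no peak in NS DMSO (55.6%, 26.7 to 81.1), beside 53.5% of all merged regions. The SW rottlerin list alone gave 3 of the 9, beside 18.2% of all, too few to set against that share.

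PRKCH encodes PKC-η, a calcium-independent enzyme found in T cells. Its 27 regions had peaks in NS DMSO in 14 cases, in SW DMSO in 13, in NS rottlerin in 15 and in SW rottlerin in 22, and 7 were in all 4 lists. The densest stretch of the family lay here, with 10 regions in 45.6 kb between 246 and 292 kb from the 5′ end. Of these 10, 4 were in all 4 lists, beside 26.6% of all merged regions, too few to set against that share. The highest value was at 289 kb (chr14:61943430-61943945), with 3.8 in NS DMSO, 4.59 in SW DMSO, 5.04 in NS rottlerin and 6.79 in SW rottlerin. The region at 155 kb had 3.62, 5.2, 4.75 and 6.25, and the region at 201 kb had 3.97, 5.32, 4.2 and 6.05. In these 3, which had the highest SW rottlerin values of the gene, NS DMSO was the lowest list and SW rottlerin the highest. The other PRKCH regions in all 4 lists, at 198, 246, 257 and 265 kb, did not have this order.

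The sole PRKCH region with peaks in every list except NS DMSO was at 285 kb (chr14:61938878-61940072), with 4.14 in SW DMSO, 4.3 in NS rottlerin and 4.53 in SW rottlerin. The sole region of NS DMSO alone, at 230 kb, had 3.26. No PRKCH region lay within 1 kb of the annotated 5′ end. The canonical PRKCH transcript starts farther inside the gene, and the nearest region to that start was 16.5 kb beyond it, with 4 in NS DMSO, 3.49 in SW DMSO, 4.02 in SW rottlerin and no peak in NS rottlerin.

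PRKCQ encodes PKC-θ, the calcium-independent enzyme of the T-cell contact. Its 15 regions comprised 6 in all 4 lists, 8 without a peak in NS DMSO and 1 in NS DMSO alone. The nearest to the 5′ end was 1.75 kb inside the gene, with 3.98 in NS DMSO, 3.3 in SW DMSO, 2.77 in NS rottlerin and 3.22 in SW rottlerin, so that NS DMSO was the highest. The highest value of the gene was at 81.4 kb (chr10:6540746-6541044), with 4.36, 5.27, 6.35 and 3.96, where NS rottlerin was the high list.

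At PRKCQ 2 regions, 1 intronic and 1 upstream, had peaks in the lists other than NS DMSO. The intronic region at 66.6 kb (chr10:6555435-6555808) had 4.67 in SW DMSO, 3.96 in NS rottlerin and 5.91 in SW rottlerin. The upstream region, 31.8 kb before the 5′ end (chr10:6653674-6654547), had 4.31, 5.62 and 5.02. The latter lay 3.77 kb from a start of PRKCQ-AS1, an antisense RNA gene, and assignment to PRKCQ is by distance only. The PRKCQ region of NS DMSO alone, at 114 kb, had 3.19. Between 66.6 and 114 kb PRKCQ held 8 regions in 47.6 kb, of which 5 had no peak in NS DMSO and 2 were in all 4 lists. Over all merged regions these shares were 53.5% and 26.6%. The stretch was chosen as the gene's densest and is too small to set against them.

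The atypical genes PRKCI and PRKCZ had 7 regions between them. PRKCI encodes PKC-ι, a partner of the cell polarity proteins PARD3 and PARD6A. Its promoter region, chr3:169939770-169940298, covered the 5′ end and was in all 4 lists, with 4.28 in NS DMSO, 3.95 in SW DMSO, 3.63 in NS rottlerin and 3.58 in SW rottlerin. NS DMSO was the highest here and SW rottlerin the lowest, whereas at the PRKCE promoter NS DMSO was the lowest and SW rottlerin the highest. A second region with its near edge within 1 kb, mid-point at 1.05 kb, had a peak in NS rottlerin alone (3.83). The highest PRKCI value, 5.09 in SW DMSO, was at a region 40.7 kb upstream that lay 15 bp from the start of PHC3, a neighbouring gene.

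PRKCZ encodes PKC-ζ. No PRKCZ region lay near the gene's 5′ end. Its 3 regions were all inside the gene, at 83 kb with 2.56 in NS DMSO, 2.87 in NS rottlerin and 2.84 in SW rottlerin, at 96.3 kb with 3.72 in SW DMSO alone, and at 98.5 kb with 3.03 in NS rottlerin alone. The region at 83 kb lay 198 bp from the start of another PRKCZ transcript, and its 2.56 was the lowest NS DMSO value at the 8 genes.

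**Figure D3:**
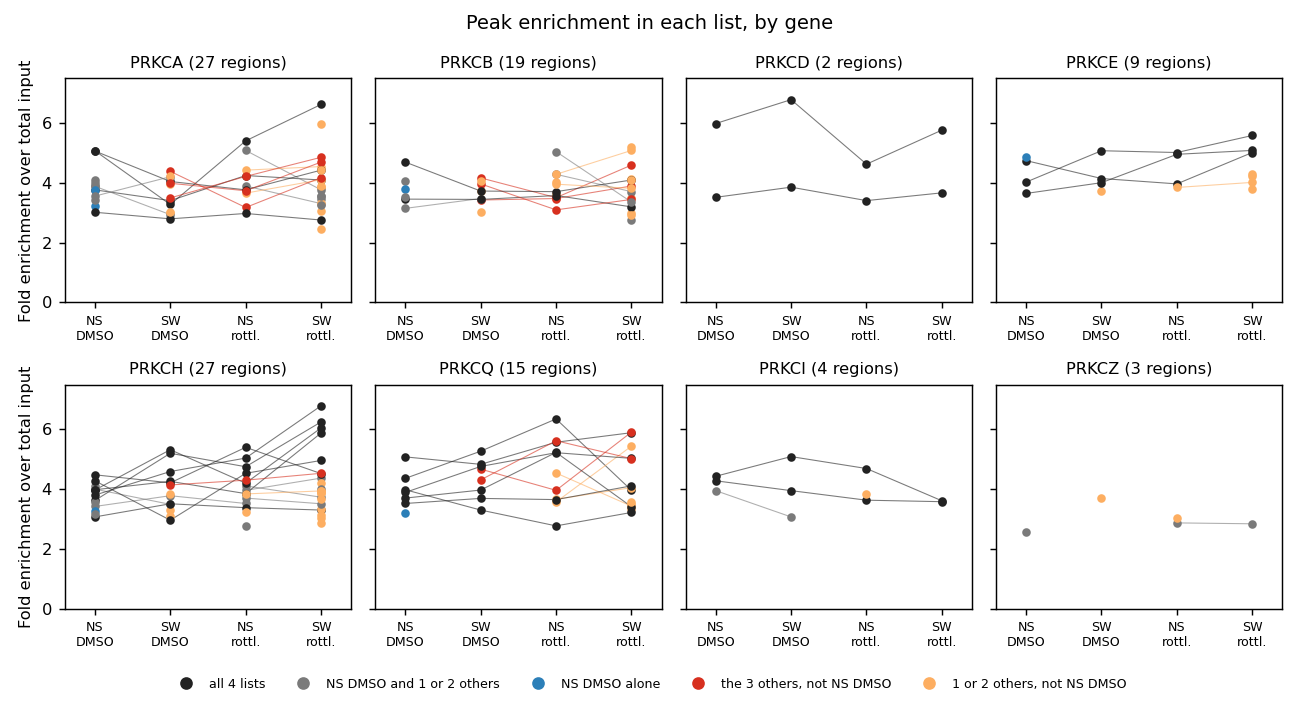
Fold enrichment over total input (column 7, no unit) of each merged region's peak in each list, 1 panel a gene, with points joined where neighbouring lists both had a peak and coloured by the lists with a peak. Values run from 2.46 to 6.79, with the highest in PRKCD (SW DMSO) and PRKCH (SW rottlerin).

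Where both lists had a peak, column 7 differed little from its NS DMSO value. The median ratio over NS DMSO was 1.06 in SW DMSO (32 regions at the 8 genes, range 0.646 to 1.44), beside 0.98 over 12550 merged regions. It was 1.06 in NS rottlerin (36 regions, 0.696 to 1.46), beside 1.04 over 13702, and 0.991 in SW rottlerin (40 regions, 0.806 to 1.79), beside 1.06 over 14037. Ratios of at least 1.5 were found in 0 regions in SW DMSO, beside 1.67% of all shared regions, in 0 in NS rottlerin, beside 3.19%, and in 3 in SW rottlerin, beside 4.5%. A ratio as far below 1 was found in 1 region in SW DMSO, beside 2.18%, in 0 in NS rottlerin, beside 1.38%, and in 0 in SW rottlerin, beside 1.54%.

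The regions past 1.5-fold belonged to PRKCH and PRKCA. The 3 higher ones in SW rottlerin were those of PRKCH at 289 kb (1.79 times), 155 kb (1.73 times) and 201 kb (1.52 times), and the lower one in SW DMSO was PRKCA at 71.9 kb (0.646 times). Just under the threshold was PRKCH at 257 kb (1.48 times in SW rottlerin). The PRKCB regions shared with NS DMSO all had lower values in SW rottlerin, at 0.873 to 0.955 times. With 1 library a list, none of these ratios can be compared with a spread between replicates.

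**Figure D4:**
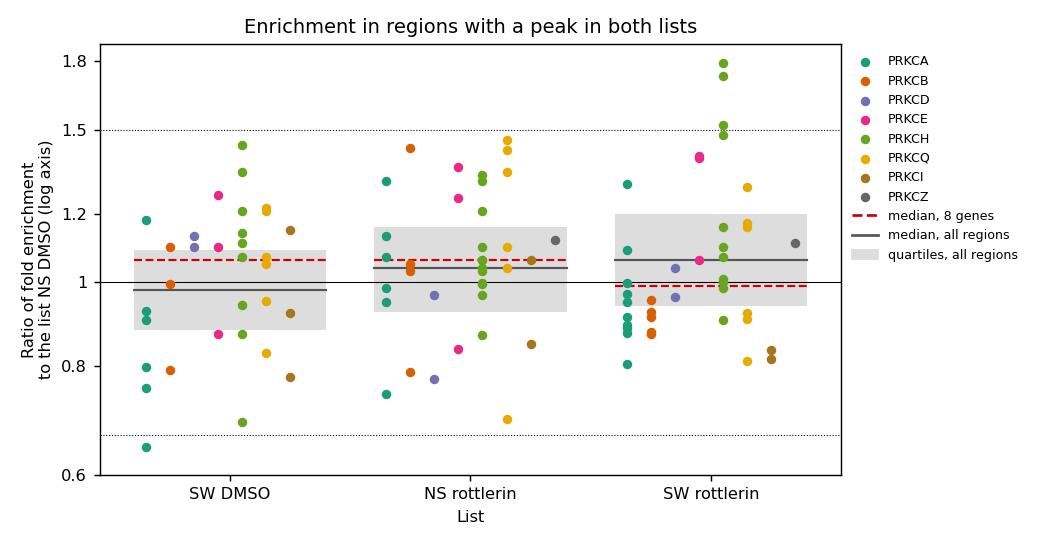
Ratio of fold enrichment to the list NS DMSO (log axis) in each merged region with a peak in both lists, coloured by gene, with dotted lines at a 1.5-fold difference. The dashed member median (1.06, 1.06 and 0.991) lies inside the grey quartile band of all regions in each list, and 3 PRKCH points lie above the upper dotted line in SW rottlerin.

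At the 8 genes, as over all merged regions, the AP-1 consensus was found mainly in regions without a peak in NS DMSO. It was found in the central 300 bp of 22 of the 106 regions (20.8%), beside 17.9% of all merged regions. Of these 22, 19 had no peak in NS DMSO, 1 was in all 4 lists and 2 were in NS DMSO with 1 or 2 others. The share with a match was thus 33.3% of the 57 regions without a peak in NS DMSO and 3.85% of the 26 regions in all 4 lists, and the same shares over all merged regions were 25.8% and 9.68%. Of the 7284 merged regions with a match, 5614 had no peak in NS DMSO. Of the 9 regions at the 8 genes with peaks in every list except NS DMSO, 6 held the string (66.7%), beside 36.7% of 2883. Sets of 9 and 26 regions are too small to set against the shares over all. None of these shares was matched for annotation or GC content. By gene, 7 of 27 PRKCA regions, 5 of 15 PRKCQ regions, 4 of 19 PRKCB regions, 3 of 27 PRKCH regions, 2 of 9 PRKCE regions and 1 of 4 PRKCI regions held the string, and 0 of 2 at PRKCD and 0 of 3 at PRKCZ.

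The other 8 strings were searched on both strands in the same window. NFAT (TGGAAA) was found in 36.8% of the 106 regions beside 27.9% of all, RUNX (TGTGGTT) in 18.9% beside 17.7%, the E-box CACCTG in 21.7% beside 21.4% and ETS (CNGGAAGT) in 11.3% beside 10.5%. Shares below those over all regions were found for the remaining strings. The string AGATAA, read by GATA factors, was found in 17% beside 21%, and the SP/KLF string printed above in 11.3% beside 22.6%. For NF-κB (GGGNNTTTC) the shares were 1.89% beside 5.03%. For EGR (GCGTGGG) they were 0.943% beside 4.25%. PRKCH had the most NFAT-bearing regions, 14 of 27. The NFAT and ETS strings share the letters GGAA, and the NFAT and NF-κB strings can overlap. These shares were not matched for annotation, and the assignment rule favours introns. A match describes the letters in the window and is not evidence that a factor was bound.

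At the 8 genes, regions that every list held had fewer CpG than such regions over the whole genome. Their median GC content was 44.7%, beside 57% for the 10841 regions in all 4 lists, and their median number of CpG in the central 300 bp was 4.5, beside 15. For the regions without a peak in NS DMSO the corresponding medians were 44.7% beside 44.3% and 3 beside 3. Among the 26 regions were the promoters of PRKCE (67% GC and 36 CpG) and PRKCI (58% and 17), whereas the PRKCB promoter (77.3% and 39) was not in all 4 lists. The assignment rule favours introns, and these medians were not matched for annotation. GC content of a recovered fragment can alter its yield in sequencing, and its part in these shares was not tested.

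**Figure D5:**
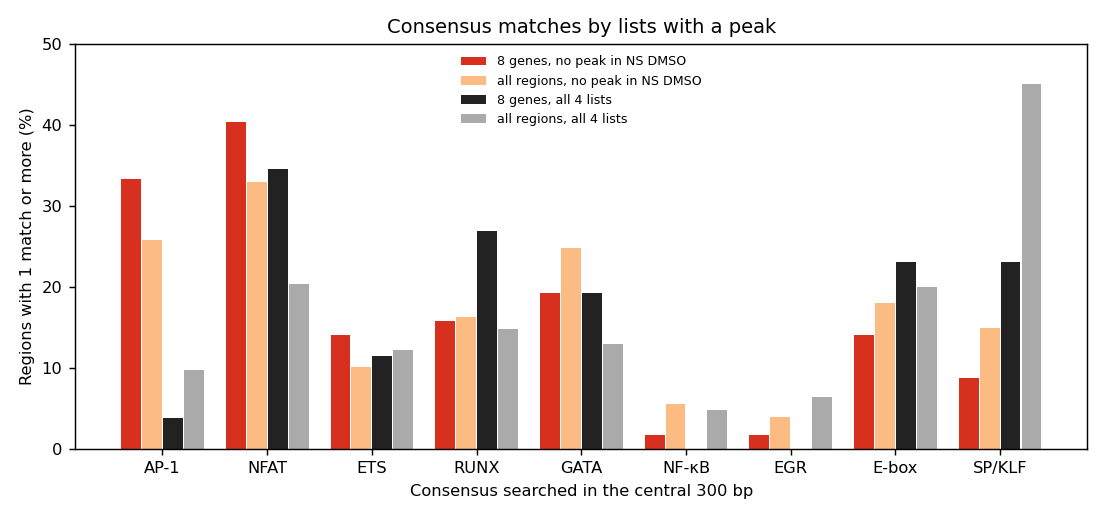
Share of merged regions (%) with at least 1 match to each consensus in the central 300 bp, as bars for regions without a peak in NS DMSO and regions in all 4 lists, at the 8 genes and over all merged regions. AP-1 stands at 33.3% and 3.85% at the 8 genes, beside 25.8% and 9.68% over all, and SP/KLF at 8.77% and 23.1%, beside 14.9% and 45%. The 3.85% is 1 of 26 regions.

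The pathway around the enzymes was read by the same rule over 3 gene groups with 12 genes, which had 72 merged regions. A peak was absent from NS DMSO in 38 of them (52.8%, 41.4 to 63.9), beside 53.5% of all merged regions. Of the 72, 19 were in all 4 lists (26.4%, beside 26.6%), 4 in every list except NS DMSO (5.56%, beside 7.08%) and 5 in NS DMSO alone (6.94%, beside 7.83%). A region within 1 kb of the 5′ end was found for 6 of the 12 genes, beside 3 of the 8 protein kinase C genes and 44.9% of all protein-coding genes. Genes that make, bind or remove diacylglycerol (PLCG1, PLCG2, DGKA, DGKZ and RASGRP1) had 29 regions, of which 12 had no peak in NS DMSO (41.4%, 25.5 to 59.3). Partners and substrates (PARD3, PARD6A, SQSTM1 and MARCKS) had 32 regions, of which 22 were at PARD3. Of these 32, 21 had no peak in NS DMSO (65.6%, 48.3 to 79.6), 15 of them at PARD3. The activating kinase PDPK1 had 5 regions, and the phosphatases PHLPP1 and PHLPP2 had 6 and 0. Of these 11, 5 had no peak in NS DMSO (45.5%, 21.3 to 72). Each interval contained the 53.5% of all merged regions.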

How the data were processed

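Per the labels and the study's methods, the authors used CutAdapt for trimming, Bowtie2 for alignment to hg19, Picard for duplicates and MACS2 (broad, against total input) to call peaks, which the methods describe for the DMSO samples; versions are not given in the sources used here. Each deposited list gives a score, the fold enrichment over input (column 7, a ratio) and p-value and q-value columns as −log10 for every peak; the score is 10 times the −log10 q-value. Read depth is unknown. Peaks on autosomes, X and Y were merged in Python 3.11.15 (28 of 40731 regions on other contigs were left out), and regions were assigned by an overlap of 1 bp with GENCODE 44 genes on GRCh37. Column 7 was taken as each list's peak value, and a difference was counted past 1.5-fold. Regions described singly were, for each gene, those within 1 kb of the 5′ end, the one with the highest column 7, those with peaks in the 3 lists other than NS DMSO and the highest of NS DMSO alone; the others named were chosen after their values were seen. Promoter means up to 1 kb before a transcript start and upstream 1 to 10 kb before. GC content, CpG and strings were read in the central 300 bp. Shares carry 95% Wilson intervals from scipy 1.17.1. With 1 library per group no test was run. Merging, assignment and string search were tested on simulated data. The genes and lists were chosen with earlier results of these data known. Results for some pathway and neighbouring genes are not reported here.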

Additional observations from a re-analysis of the deposited data

Results flagged for a closer look

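In 2 PRKCA regions the presence of a peak differed in opposite directions between the 2 lists labelled DMSO and the 2 labelled rottlerin. They are singled out by presence alone. Column 7 also differed in opposite directions in some regions with a peak in all 4 lists. At PRKCA 71.9 kb it was 5.08 in NS DMSO and 3.28 in SW DMSO, but 5.41 in NS rottlerin and 6.63 in SW rottlerin. Which cells the lists other than NS DMSO describe is in doubt, so no such difference can be read as an effect of treatment. The region 47.1 kb upstream of the 5′ end had a peak in NS DMSO (4.01) and in SW rottlerin (3.55) and none in SW DMSO or NS rottlerin, and it lay 1.02 kb from a start of APOH, a neighbouring gene. The region 240 kb inside the gene had 3.42 in NS DMSO and 3.25 in SW rottlerin and no peak in the other two lists. The difference was not tested, since each group has 1 library. The same pattern was found in 1.62% of all merged regions, beside 1.89% at the 8 genes.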

How the results depend on the processing

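There were 52 alternatives over 16 results, of which 43 left the value where it was, 9 moved it and 0 reversed it. The rule was within 1.5 times for a count and inside the 95% interval for a share. Counts and shares have no direction and could not reverse. Weighting fold enrichment by peak width could not change a median ratio, because none of the 106 regions had more than 1 peak in a list. Dropping peaks with a q-value above 0.05 removed only 1 peak from these regions, in SW rottlerin. The 43 is therefore not a measure of how stable the results are. The 106 regions became 10 when only the 10 kb around the 5′ end were searched and 49 when each list was cut to its higher-scoring 50%. The share without a peak in NS DMSO, 53.8%, became 70% of the 10 regions within 10 kb of the 5′ end. No share over all merged regions was taken for that window. It became 42.4% with 18977 peaks in every list (beside 41.5% of all merged regions) and 63.3% with the higher-scoring 50% (beside 52.1%). Without the list labelled SW rottlerin the share was 41.7% (beside 43.3%). The share in all 4 lists, 24.5%, became 12.2% with the higher-scoring 50% (beside 29.1%). The share in NS DMSO alone, 5.66%, became 0% of the 10 regions within 10 kb of the 5′ end. It was 14.1% with equal numbers of peaks (beside 13.3%). Without the list labelled SW rottlerin it was 9.52% (beside 11.6%), inside its interval but over 1.5 times higher. Each such setting uses fewer peaks or a smaller window. The alternative with the canonical transcript start and those leaving out a list were added after seeing the data. No paired analysis was possible because each group has 1 library. Read depth is not known, so a missing peak is not evidence of closed chromatin.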
